A study of Mus musculus with 13 samples.

Results

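Of the 576 wells of the 2 p0 and 4 p12 plates of *PVRx3:tdT* dorsal root ganglion (DRG) neurons, 517 held at least 2000 genes with a Unique Molecular Identifier (UMI) count above 0. The authors' annotation after quality control holds 209 of these (kept wells) and lacks 308 (left-out wells). The left-out wells are the subject here, 92 at p0 and 216 at p12, out of 1248 wells in the whole series, and they are compared with the 55 kept wells at p0 and the 154 at p12. All mice of both stages carried PV:Cre+/-, Rx3:Flp+/- and Ai65+/-, so that tdTomato marks cells that have made Cre from the *PV* locus and Flp from the *Rx3* locus at some time, and no group lacked these alleles. Single tdTomato+ cells, high for Calcein Blue and low for Sytox red, were sorted by flow cytometry, 1 per well, from animals of either sex, 6 at p0 and 4 at p12. The label can also include a few skin-projecting afferents. Ganglia were digested for 10 min per enzyme at p0 and for 12 min at p12, and no plate held both stages, so stage, plate and digestion cannot be told apart. The animals behind a plate are not named in the sources used here, so n counts plates (p0 n = 2, p12 n = 4), and plate values are listed in the order of the replicate numbers.

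Each DRG neuron is wrapped by satellite glial cells, which buffer potassium and glutamate around the cell body, and its axon is ensheathed by Schwann cells, which make myelin. Both glial types arise from the neural crest, depend on the transcription factor SOX10, and mature after birth. A neuron freed from the ganglion can keep glial cells or fragments of them attached to its surface, so that its well then holds RNA of both.

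Promoters of 3 glial genes on which the results turn are shown because the data follow their RNA across stages. *Fabp7* encodes the fatty acid-binding protein of satellite and immature glia, *Gpr37l1* a G protein-coupled receptor of glia and *Kcnj10* the inward rectifier potassium channel of satellite glia. Each window is 300 bases in GRCm38.p6 from RefSeq, 5′ to 3′ along the gene, chr10:57784673-57784972 on the plus strand for *Fabp7*, chr1:135167632-135167931 on the minus strand for *Gpr37l1* and chr1:172340960-172341259 on the plus strand for *Kcnj10*. Capitals mark the motif ACAAAG or ACAATG, which SOX proteins can bind, searched on both strands.
Fabp7: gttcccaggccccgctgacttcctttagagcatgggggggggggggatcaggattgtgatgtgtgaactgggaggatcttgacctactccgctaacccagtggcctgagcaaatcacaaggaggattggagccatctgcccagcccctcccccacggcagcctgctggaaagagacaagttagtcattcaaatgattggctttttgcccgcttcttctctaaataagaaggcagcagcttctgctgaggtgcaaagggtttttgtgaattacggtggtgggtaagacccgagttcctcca
Gpr37l1: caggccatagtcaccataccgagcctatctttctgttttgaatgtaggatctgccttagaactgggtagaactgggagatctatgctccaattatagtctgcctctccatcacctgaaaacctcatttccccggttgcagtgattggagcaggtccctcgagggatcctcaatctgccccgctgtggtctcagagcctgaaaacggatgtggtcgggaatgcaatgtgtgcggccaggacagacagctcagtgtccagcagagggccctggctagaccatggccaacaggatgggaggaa
Kcnj10: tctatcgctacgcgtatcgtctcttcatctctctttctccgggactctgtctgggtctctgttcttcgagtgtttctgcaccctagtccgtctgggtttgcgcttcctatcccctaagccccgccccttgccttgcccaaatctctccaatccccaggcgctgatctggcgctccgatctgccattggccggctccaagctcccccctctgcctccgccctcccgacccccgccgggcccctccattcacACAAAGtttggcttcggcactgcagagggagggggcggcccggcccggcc
The *Kcnj10* window held 1 such motif, and the *Fabp7* and *Gpr37l1* windows held 0. The motif is common, present in 9394 of 32851 promoter windows of this length (28.6%), so its presence or absence is a description of these letters only.

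The left-out wells were chosen from measured values. No kept well exceeded 1952 CPM (the UMIs of a gene over all UMIs of a well, scaled to 1e6) of *Apoe*, which encodes apolipoprotein E (chr7:19696244-19701310). Just outside this level, the lowest *Apoe* value was 1959 CPM. At the gene minimum, the lowest well inside held 2028 genes and the highest outside 480. Of the left-out wells, 40 of 92 at p0 (43.5%) and 17 of 216 at p12 (7.87%) lay at or below the highest *Apoe* level of kept wells, so that *Apoe* alone did not set the classes. The limits that the study's methods name for *Apoe* and *Mbp* do not describe these classes. All *Apoe* values below, and the differences between left-out and kept wells within a stage, are therefore descriptions with no test. Tests were made between stages, of left-out wells, of kept wells and of the difference between them.

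The label of glia-bearing neurons was checked against genes that the choice did not use. Every left-out well carried *Pvalb*, which encodes the calcium-binding protein parvalbumin, with at least 1588 CPM at p0 and 916 CPM at p12, and every one carried the synaptic gene *Snap25*. The median *Pvalb* level was 3165 CPM in left-out and 3669 CPM in kept wells at p0, and 2839 and 3331 CPM at p12. *Fabp7* had a UMI in 89 of 92 left-out wells at p0 and in 210 of 216 at p12. With each well thinned to 5000 UMIs, the share of wells with *Fabp7* was 94.6% in left-out and 23.6% in kept wells at p0, and 93.5% and 11.8% at p12. Most left-out wells thus held a proprioceptor's RNA and glial RNA together, while some had no UMI of *Fabp7*. Across left-out wells *Fabp7* moved with *Apoe* (Spearman's rho 0.43 at p0 and 0.63 at p12), so it is not independent of the choice. Kept wells were not free of glial RNA. The highest kept *Fabp7* values, 2367 CPM at p0 and 1447 CPM at p12, lay within the range of left-out wells. *Mbp* (myelin basic protein) reached at most 842 CPM in any well.

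**Figure D1:**
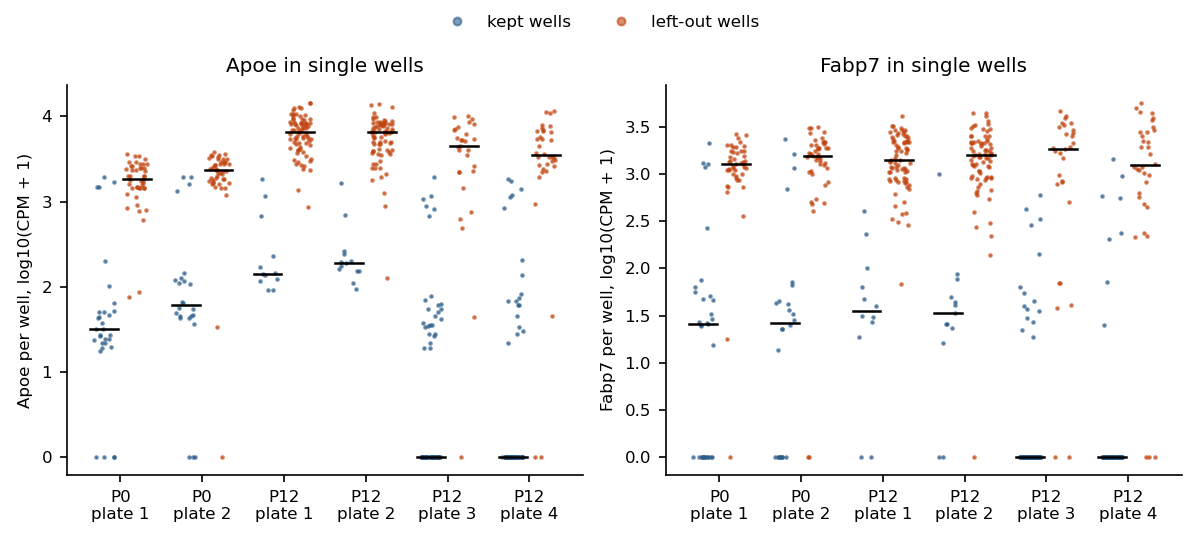
*Apoe* and *Fabp7* in each well, as log10(CPM + 1), by plate, for kept wells (blue) and left-out wells (orange), with a black bar at the median. *Apoe* helped to choose the classes, whereas *Fabp7* did not, and the *Fabp7* median of left-out wells was 1434 CPM at p0 and 1525 CPM at p12, against 24.96 and 0 CPM in kept wells.

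The share of wells left out was 59.2% (45 of 76, 95% exact binomial interval 47.3 to 70.4) and 66.2% (47 of 71, 54 to 77) on the p0 plates. On the p12 plates it was 86.4% (76 of 88, 77.4 to 92.8), 85.6% (77 of 90, 76.6 to 92.1), 30.2% (29 of 96, 21.3 to 40.4) and 35.4% (34 of 96, 25.9 to 45.8). The p12 shares fell on both sides of the p0 shares, and p12 replicates 1 and 2 stood apart from replicates 3 and 4. These intervals cover counting error only. The mean depth of left-out wells was 41150 and 33425 UMIs at p0 and 62785, 50109, 24440 and 18849 UMIs at p12. On all 6 plates it was below that of the kept wells, by a mean of −0.14 ± 0.08 (SD) on the log2 scale, given without a test because the choice of wells set the classes. Summed per plate and class, the UMIs came to between 640855 and 4771655 for left-out and between 680212 and 1905013 for kept wells.

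Satellite glial genes were higher in left-out than in kept wells at both stages. With the plate as a pair, 16 of 23 tested genes of the satellite glial list were more than 1 log2 unit higher in left-out wells at p0 and 17 at p12. Over all 11457 genes tested, 639 (5.58%) were so at p0 and 682 (5.95%) at p12, while 197 (1.72%) and 90 (0.786%) were more than 1 unit lower. These counts moved with single plates, to 1038 genes higher at p0 without p0 replicate 1, to 501 and 463 lower at p0 without p0 replicate 1 or 2, and at p12 to 139 and 158 lower without p0 replicate 1 or 2 and to 148 and 143 without p12 replicate 2 or 4. Since the classes were chosen by glial RNA, nothing is read from that difference in share. The median difference of the list was 2.33 at p0 and 3.18 at p12, beside 0.01 and −0.03 over all genes. The list took 0.593% and 0.661% of the UMIs of left-out wells at p0 and 0.818%, 0.825%, 0.757% and 0.778% at p12, against 0.242% and 0.257%, and 0.372%, 0.357%, 0.421% and 0.448%, in kept wells. Left-out values lay above kept values at each stage, and in both classes the p12 shares lay above both p0 shares, so the rise of the list between stages was not particular to left-out wells. In sums such as these, more cells of a type per well and more of its RNA per cell cannot be told apart.

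*Fabp7* (chr10:57784923-57788450) was one of them. In left-out wells it measured 1292 and 1500 CPM at p0 and 1482, 1548, 1696 and 1754 CPM at p12. Summed over kept wells it measured 175 and 193 CPM at p0 and 102, 70.6, 38.3 and 58.6 CPM at p12. These kept sums rest on a few wells close to the left-out ones in *Apoe*, described here at a limit of 1000 CPM that was chosen after seeing the data. At p0, 4 of 31 and 4 of 24 kept wells exceeded it, with 1326 to 1952 CPM of *Apoe* and 693 to 2367 CPM of *Fabp7*, and they held 86.6% and 89.3% of the *Fabp7* UMIs of kept wells. At p12, 11 of 154 kept wells exceeded it and held 52.5%, 54.2%, 37.0% and 93.7%. Over the other kept wells *Fabp7* came to 24.8 CPM at p0 (47 wells) and 25.7 CPM at p12 (143 wells). Left-out and kept sums did not overlap, and between stages the left-out sums overlapped while the kept sums did not. *Sparc*, a secreted matrix-binding glycoprotein (chr11:55394159-55420080), measured 219 and 265 CPM in left-out wells at p0 and 462, 496, 220 and 212 CPM at p12, against at most 37.1 CPM in kept wells. *Sostdc1*, a secreted antagonist of BMP and WNT signals (chr12:36314169-36318452), measured 271 and 297 CPM at p0 and 323, 263, 155 and 150 CPM at p12, against at most 47.9 CPM in kept wells. *Sparc* had a UMI in 11 of 55 kept wells at p0 and 25 of 154 at p12, and *Sostdc1* in 15 and 17. For both genes the p12 plates spanned the p0 values. Some listed genes were not particular to left-out wells, among them *Aldoc* (aldolase C), with a difference of 0.05 at p0 and 0.14 at p12, and *Mt3* (metallothionein 3), with −0.23 and −0.25.

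Schwann-lineage and myelin genes were likewise higher in left-out wells. At p0, 13 of 16 tested Schwann-lineage genes were more than 1 log2 unit higher and at p12 14 were, with median differences of 2.34 and 3.76. Of 9 tested myelin genes, 6 were so at each stage, with medians of 2.30 and 3.42. *Gjc3*, a glial connexin, had no UMI in kept wells of either stage, which allows up to 1.31 CPM at p0 and 0.636 CPM at p12. *S100b*, a calcium-binding protein of Schwann cells that proprioceptors also make, ran the other way, with 179 and 162 CPM in left-out and 248 and 390 CPM in kept wells at p0. At p12 it took most of the UMIs of the Schwann list, whose share was 0.0672% and 0.0658% in left-out wells at p0 and between 0.313% and 0.341% at p12, against 0.273% to 0.294% in kept wells at p12.

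Genes of matrix and adhesion were higher by more than 1 log2 unit in 11 (p0) and 12 (p12) of 19 cases, with medians of 2.57 and 2.95. Of 21 genes of cholesterol and lipid synthesis, which myelinating glia use heavily, 3 were so at each stage, with medians of 0.48 and 0.46. Of 20 genes for glial signals (growth factors and transcription factors that pass between or act in glia), 6 were so at p0 and 10 at p12. Of 17 immediate early genes, which respond to stimulation and to tissue dissociation, 7 were so at p0 and 10 at p12, with medians of 0.84 and 1.08. *Fos* measured 152 and 146 CPM in left-out and 41.7 and 33.7 CPM in kept wells at p0. Of 13 cell cycle genes, 4 were more than 1 log2 unit higher at p0 and 10 at p12, with medians of 0.33 and 1.48.

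Neuronal genes differed little between the classes. Of 29 tested genes of the proprioceptor list, 0 were more than 1 log2 unit higher in left-out wells at either stage, 1 was more than 1 unit lower at p0 (*Pou4f3*, a POU-domain transcription factor, −1.13) and 0 were at p12. The medians were −0.09 at p0 and −0.23 at p12. The list took 3.15% and 2.99% of left-out UMIs at p0, against 3.36% and 3.42% of kept UMIs, and 4.16%, 3.93%, 3.42% and 3.13% at p12, against 5.04%, 4.74%, 3.75% and 3.45%. On each plate the share was lower in left-out wells. *Pvalb* (chr15:78191112-78206400) measured 3022 and 3259 CPM in left-out wells at p0 and 2786, 2720, 3033 and 3355 CPM at p12, close to the kept values of 3624 and 3493, and 2807, 3183, 3415 and 3387 CPM.

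**Figure D2:**
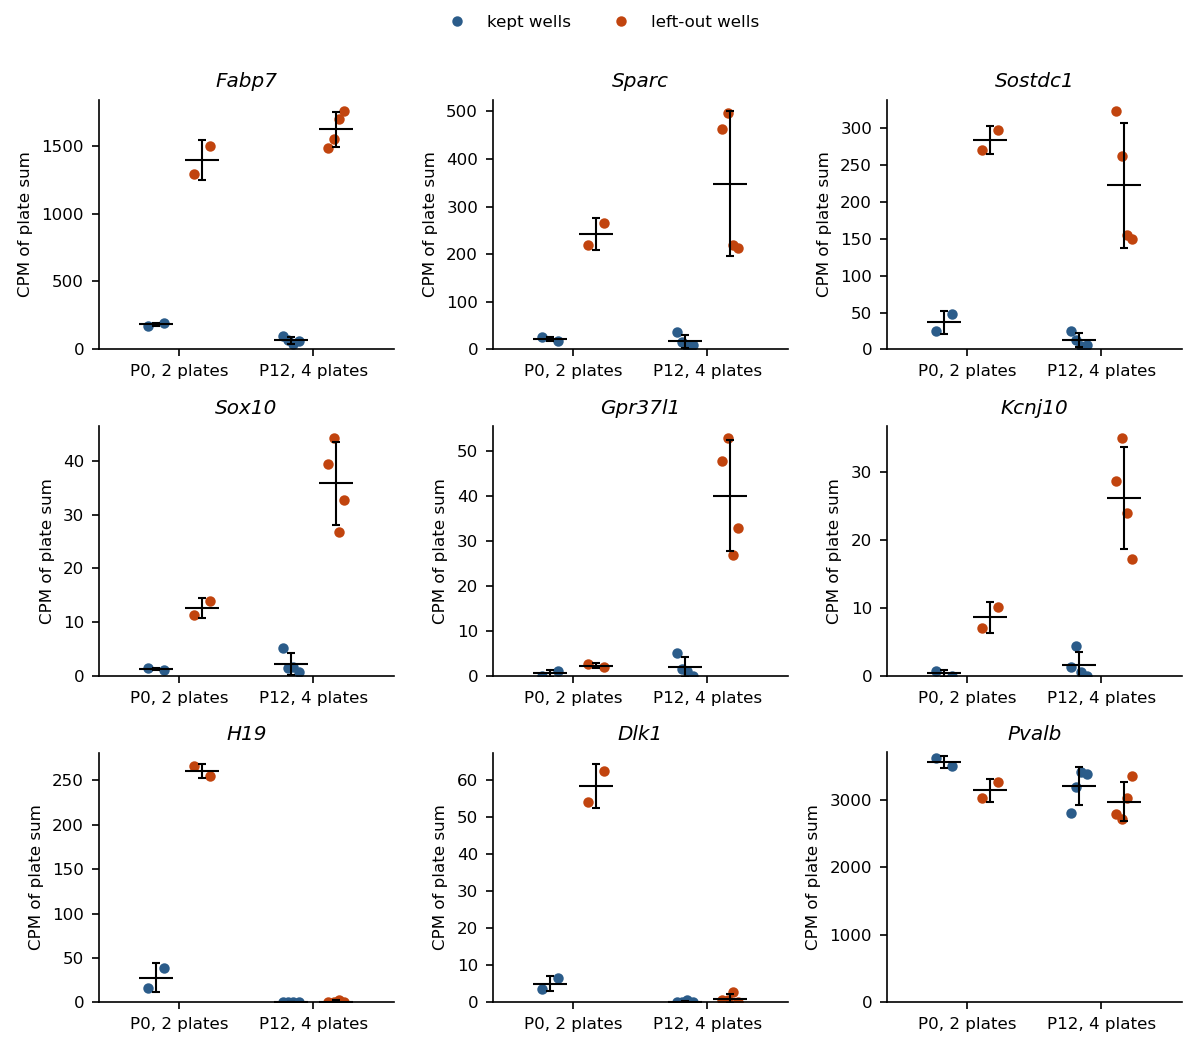
CPM of plate sums for 9 genes in kept (blue) and left-out wells (orange) at p0 (2 plates) and p12 (4 plates), with the mean ± SD in black. *Fabp7*, *Sparc*, *Sostdc1*, *Sox10*, *Gpr37l1* and *Kcnj10* sat higher in left-out wells, *H19* and *Dlk1* were high at p0 (*H19* mean 260 CPM in left-out wells), and *Pvalb* was near the same level in both classes.

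Lists of other cell types took small shares of the UMIs, some of them higher in left-out wells. Of the macrophage list, 2 of 10 genes passed the filter on low counts, and the defining genes *C1qa* and *Csf1r* had 0 UMIs in all sums. Its summed level in left-out wells ranged from 0.00191% to 0.00275% of UMIs at p0 and from 0.000959% to 0.00141% at p12. In kept wells it was 0.00402% and 0.00631% at p0, above both left-out values, and 0.000512% to 0.00132% at p12. Of the lists for endothelial and mural cells (12 genes), oligodendrocytes (7) and erythrocytes (8), 1, 1 and 0 genes passed. Of 12 fibroblast genes 6 passed, and the list's share in left-out wells was 0.0146% and 0.0121% at p0 and 0.0229%, 0.0254%, 0.0137% and 0.0115% at p12. In kept wells it was 0.00482% and 0.00511%, and 0.00716%, 0.00397%, 0.00231% and 0.00185%, below the left-out share on every plate. Of 12 genes of other sensory neurons 6 passed. Their share in left-out wells was 0.0352% and 0.0299% at p0 and 0.0226%, 0.0449%, 0.0199% and 0.0233% at p12. In kept wells it was 0.0156% and 0.0099%, and 0.00767%, 0.00706%, 0.0131% and 0.0151%, also lower on every plate. The left-out excess of the fibroblast and other sensory neuron lists thus moved with that of the glial lists, and at p0 the other sensory neuron share stood beside 0.0672% and 0.0658% for the Schwann list. *Calca*, the peptide CGRP of nociceptors, measured 29.2 and 70.7 CPM in left-out wells at p0 and 49.5, 189, 0 and 0 CPM at p12, against at most 5.88 CPM in kept sums, and it exceeded 100 CPM in 3 left-out wells at p0 and 6 at p12. Whether these cells or their RNA bear on the glial values was not tested.

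Between stages, the RNA of left-out wells was compared with edgeR's quasi-likelihood test, and the same test was run on kept wells of the same plates. In left-out wells 2041 of 11566 genes (17.6%) passed an adjusted p of 0.05, of which 983 (8.50%) rose and 1058 (9.15%) fell from p0 to p12. In kept wells 1569 of 9771 genes (16.1%) passed, 739 rising (7.56%) and 830 falling (8.49%). The median over all genes was 0.03 and 0.02. These counts rest on both p0 plates, since without p0 replicate 1 or 2 they came to 372 and 308 in left-out wells and to 255 and 201 in kept wells. They also depended on the p12 plates, with 1325 genes called in left-out wells without p12 replicate 1.

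Schwann-lineage genes changed between stages in left-out wells. Of 17 tested, 8 rose, among them *Sox10*, *S100b*, *Erbb3*, *Gpr37l1*, *Cryab*, *Dhh* and *Art3*, and 1 fell (*Gfra3*), with a median of 1.46. That is 52.9% of the list, beside 17.6% over all genes. In kept wells 4 of 7 tested members passed (57.1%, beside 16.1% over all genes), with *S100b* and *Cryab* rising and *Cnp* and *Gfra3* falling, so the changes of *S100b*, *Cryab* and *Gfra3* were not particular to left-out wells. *Sox10*, *Erbb3*, *Gpr37l1* and *Dhh* were too scarce in kept wells to be tested there. *Gpr37l1* (chr1:135160250-135167681) measured 2.70 and 1.91 CPM at p0 and 47.8, 52.9, 26.8 and 32.8 CPM at p12. The p12 values all lay above the p0 values (log2 difference 4.15 ± 0.39 SE, adjusted p = 0.000501). The p0 values come from sums of 1851742 and 1570958 UMIs. They rest on few UMIs of this gene, so no fold of means is given. *Sox10* (chr15:79154913-79164490), the transcription factor of all peripheral glia, rose from 12.7 ± 1.88 (SD, n = 2) to 35.8 ± 7.65 CPM (SD, n = 4; log2 difference 1.56 ± 0.25 SE, adjusted p = 0.00503).

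Among the other members, *Erbb3*, the neuregulin receptor through which axons act on Schwann cells, measured 4.86 and 4.46 CPM at p0 and 17.4, 22.0, 9.88 and 12.5 CPM at p12 (1.83, adjusted p = 0.0128). *Dhh*, the hedgehog ligand that Schwann cells send to the perineurium, measured 5.94 and 6.37 CPM at p0 and 51.3, 43.0, 8.47 and 17.2 CPM at p12 (2.44, adjusted p = 0.027). All p12 values of both genes exceeded those of p0, by the least on p12 replicate 3. *Gfra3*, the artemin co-receptor that immature glia and some nociceptors carry, fell by 3.63 on the log2 scale (adjusted p = 0.00783), from 57.8 and 57.3 CPM to 0.629, 10.1, 2.82 and 3.12 CPM, and it also fell by 3.87 in kept wells (adjusted p = 0.00776). *S100b* rose from 171 ± 11.6 to 2445 ± 175 CPM in left-out wells (SD), and from 319 to 2709 CPM in kept wells, with log2 differences of 3.89 and 3.16. Without p0 replicate 1, 2 of these 9 genes passed (*S100b* and *Gpr37l1*) and the others named here had adjusted p-values between 0.06 and 0.208. Without p0 replicate 2, *Cryab* passed as well, and the others lay between 0.0612 and 0.194. *Dhh* was also lost without p12 replicate 1 (0.0563) or 2 (0.0587). Over all alternatives the adjusted p of the genes so lost ran from 2.66e-21 to 0.208.

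Of 23 tested genes of the satellite glial list, 4 rose, among them *Kcnj10*, *Sparcl1* and *Aldoc*, and 0 fell, with a median of 0.51. That share (17.4%) is near the 17.6% over all genes, so the count is no result about the list, and its genes are given one by one. *Kcnj10* (chr1:172341210-172374085) measured 7.02 and 10.2 CPM at p0 and 28.7, 35.0, 24.0 and 17.2 CPM at p12, without overlap (8.60 ± 2.24 against 26.2 ± 7.53 SD, log2 difference 1.69 ± 0.31 SE, adjusted p = 0.0083). *Sparcl1*, a secreted matrix protein, and *Aldoc* rose in kept wells too, *Sparcl1* by 2.31 in left-out and 2.87 in kept wells and *Aldoc* by 1.72 and 1.67, so their rise was not particular to left-out wells. *Fabp7* did not pass, with a log2 difference of 0.26 ± 0.20 SE (adjusted p = 0.405), and neither did *Dbi* (diazepam-binding inhibitor, 0.32, adjusted p = 0.219), *Sparc* (0.55, adjusted p = 0.284) or *Sostdc1* (−0.31, adjusted p = 0.452). *Ednrb*, the endothelin receptor, lay at 1.35 (adjusted p = 0.0606), and it passed without p12 replicate 3 (0.0196) or 4 (0.0329), within 2.53e-06 to 0.323 over its alternatives. Without p0 replicate 1, *Kcnj10* and *Aldoc* had adjusted p-values of 0.122 and 0.0894, and without p0 replicate 2 of 0.0664 and 0.11, against a range of 5.59e-13 to 0.122 over their alternatives. *Sparcl1* passed in both cases.

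Of 10 tested myelin genes, *Sept4* (1.77, adjusted p = 0.00152) and *Plekhb1* (2.22, adjusted p = 0.012) rose and *Mpzl1* fell (−1.29, adjusted p = 0.00223), with a list median of 0.42. That is 30% of a short list, beside 17.6% over all genes, and in kept wells 2 of 5 tested passed (40%, beside 16.1%). *Sept4* encodes a septin of the cytoskeleton, and it rose in kept wells as well (2.18), where *Mpzl1* fell (−1.90). *Plekhb1*, a pleckstrin-homology protein of myelinating glia, measured 9.18 and 10.2 CPM at p0 and 62.5, 58.6, 19.8 and 26.5 CPM at p12 without overlap. It was lost without p0 replicate 1 (adjusted p = 0.139) or 2 (0.121), the first being the highest over its alternatives and 5.98e-09 the lowest. *Mbp*, which the choice named, measured 62.6 and 64.3 CPM at p0 and 90.3, 87.1, 42.3 and 56.2 CPM at p12, and *Mal*, a proteolipid of compact myelin, 40.0 and 37.6 CPM and then 48.6, 45.1, 26.8 and 24.97 CPM. For both, the p12 plates lay on either side of the p0 plates.

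Of 19 genes of matrix and adhesion, *Col5a3* (a chain of fibrillar collagen V) and *Sdc4* (syndecan 4) rose and *Ncam1* (the neural cell adhesion molecule) fell, with a median of −0.18. The share called (15.8%) is below the 17.6% over all genes and is no result about the list. *Col5a3* had 3 UMIs in p0 left-out wells and is given without a fold, at 1.08 and 0.637 CPM against 27.5, 34.7, 7.05 and 6.24 CPM at p12. *Sdc4* measured 7.56 and 8.28 CPM at p0 and 36.0, 51.6, 19.8 and 12.5 CPM at p12 (2.05, adjusted p = 0.0213). *Ncam1* fell from 414 ± 76.8 to 125 ± 33.6 CPM (SD; −1.67, adjusted p = 0.00163). Both rises were lost without p0 replicate 1 (adjusted p = 0.11 and 0.187) or 2 (0.121 and 0.163), within a range of 2.3e-12 to 0.187 over their alternatives, while *Ncam1* passed without either. Basement membrane genes such as *Col4a1* (−0.71, adjusted p = 0.209) and *Lama2* (−0.30, adjusted p = 0.471) did not pass.

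Of 20 genes for glial signals, *Mdk*, *Sema3b*, *Fgf1* and *Hes1* rose and *Igfbp5* fell, with a median of 0.34. That share (25%) is near the 17.6% over all genes and is no result about the list, and in kept wells 11 of 15 tested passed (73.3%, beside 16.1% over all genes). *Mdk*, which encodes the growth factor midkine, measured 27.5 and 26.7 CPM at p0 and 71.0, 64.0, 74.8 and 71.8 CPM at p12 in left-out wells (1.40, adjusted p = 0.00322), and in kept wells it stayed at or below 10.3 CPM (−0.12, adjusted p = 0.9). All p12 left-out values lay above both p0 values. *Fgf1*, a fibroblast growth factor that proprioceptors make, rose by 3.32 in left-out and 2.78 in kept wells. *Hes1*, a target of Notch signalling, rose by 0.73 and 1.86, and *Igfbp5*, which binds insulin-like growth factors, fell by 1.89 and 4.05. *Sema3b*, a secreted semaphorin, rose by 1.34 (adjusted p = 0.0441) but not without p12 replicate 1 (0.092) or 2 (0.0882), nor without p0 replicate 1 (0.243) or 2 (0.268), which is the highest of a range starting at 7.87e-05. *Mdk* and *Hes1* were lost without p0 replicate 1 (0.0583 and 0.112) or 2 (0.0632 and 0.237) and *Igfbp5* without p0 replicate 2 (0.0501), against 2.19e-06 to 0.647 over the alternatives of these 3 genes.

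Genes of the cell cycle were scarce. Of 16 tested, 6 rose (*Top2a*, *Mki67*, *Cdk1*, *Ccnb2*, *Cenpf* and *Nusap1*) and 0 fell. The median was 1.02, and 37.5% of the list was called, beside 17.6% over all genes. Without p12 replicate 1 or 2, *Mki67*, *Ccnb2* and *Nusap1* were not tested, so they passed the filter on low counts through p12 plates. A gene near 0 at p0 that enters in this way can only rise, so the count and the median are no result about the list. In kept wells 3 were tested and 1 of them (*Mcm6*) fell. *Cdk1*, the kinase that drives mitosis, measured 1.08 and 1.91 CPM at p0 and 13.2, 12.4, 15.5 and 12.5 CPM at p12 (3.14, adjusted p = 0.00296), against at most 6.82 CPM in kept wells. *Top2a*, topoisomerase II of dividing cells, measured 1.62 and 2.55 CPM at p0 and at least 4.68 CPM on every p12 plate (2.53, adjusted p = 0.0124). *Ccnb2*, cyclin B2, had 0 UMIs in p0 left-out wells, which allows up to 0.877 CPM, and measured 7.75, 6.74, 5.64 and 3.12 CPM at p12. *Mki67*, the proliferation antigen Ki-67, had 2 UMIs at p0 and measured 7.96, 8.29, 1.41 and 4.68 CPM at p12. Each of the 6 genes had all its p12 values above its p0 values. None of the 6 passed without p0 replicate 1 (adjusted p between 0.0527 and 0.302), and *Cdk1* and *Cenpf* passed without p0 replicate 2, the others lying between 0.0654 and 0.175. Over their alternatives the 6 genes ranged from 9.85e-06 to 0.302. Genes of DNA synthesis such as *Pcna* (−0.30, adjusted p = 0.415) and *Mcm2* (−0.27, adjusted p = 0.787) did not pass.

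Of 21 genes of cholesterol and lipid synthesis, 1 fell (*Fdps*, farnesyl diphosphate synthase, −1.56, adjusted p = 0.00225) and 0 rose, with a median of −0.07, a share (4.76%) below the 17.6% over all genes, while in kept wells 6 of 20 passed (30%, beside 16.1%). *Fdps* also fell in kept wells (−2.19). At an unadjusted p under 0.05, 8 of the 21 were counted, and DESeq2 called 1. Of 17 immediate early genes, *Jund*, *Dusp1* and *Btg2* fell and *Atf3*, a transcription factor of injured neurons, rose, with a median of −0.25. That share (23.5%) is near the 17.6% over all genes and is no result about the list. *Jund* fell by 2.23 in left-out and by 2.31 in kept wells. *Atf3* was lost when p0 replicate 1 or 2 or p12 replicate 1 or 2 was left out (adjusted p between 0.0793 and 0.218, within 0.012 to 0.218 over its alternatives), and *Dusp1* (0.0622) and *Btg2* (0.157) when p0 replicate 1 was, *Btg2* also without p0 replicate 2 (0.122), within 2.34e-05 to 0.157 for both. Of 6 fibroblast genes tested, *Lum* and *Col3a1* rose (33.3% of a short list, beside 17.6% over all genes). Without p12 replicate 1 or 2 *Lum* was not tested, so it passed the filter on low counts through those plates and could only rise. The count is therefore no result about the list. *Col3a1*, a collagen chain that Schwann cells and fibroblasts make, measured 3.24 and 3.18 CPM at p0 and 29.5, 41.2, 25.4 and 18.7 CPM at p12 (3.22, adjusted p = 0.0013), while *Lum*, a keratan sulphate proteoglycan, had 0 UMIs at p0 and 8.17, 7.78, 0 and 1.56 CPM at p12 and was lost without p0 replicate 1 (0.233) or 2 (0.218), within 4.89e-05 to 0.233. The part of fibroblast RNA in these rises was not tested.

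Among the lists of other cells, *Fcer1g*, a receptor subunit of macrophages, fell from 23.2 and 14.6 CPM to 4 UMIs in all p12 left-out wells (adjusted p = 0.000859). It was higher in kept wells at p0, with 37.3 and 59.8 CPM, and fell there to 1 UMI at p12 (adjusted p = 0.000518), so the fall was not particular to left-out wells. *Lyz2*, lysozyme, rose (1.56, adjusted p = 0.0421), *Ntrk2*, the receptor TrkB, rose (1.18, adjusted p = 0.033) and *Sox8* fell (−2.59, adjusted p = 0.00733). *Sox8*, an oligodendrocyte list member that other glia also express, measured 15.7 and 19.1 CPM at p0 and at most 4.23 CPM at p12, and it fell in kept wells too (−1.89, adjusted p = 0.033), from 10.2 and 17.4 CPM to at most 4.45 CPM. *Lyz2* lay at 2.28 in kept wells (adjusted p = 0.07). Without p0 replicate 1 or 2, *Lyz2* (0.261 and 0.163), *Ntrk2* (0.162 and 0.275) and *Sox8* (0.0785 and 0.117) were lost, and without p12 replicate 1 or 2 *Lyz2* (0.099 and 0.055) and *Ntrk2* (0.0785 and 0.076), *Lyz2* also without p12 replicate 3 (0.0522). Over their alternatives these 3 genes ranged from 9.4e-06 to 0.275. *Pdgfrb*, the only endothelial and mural gene tested, was not called by edgeR or DESeq2, and its unadjusted p was not under 0.05.

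The neuronal RNA of the same wells also changed with stage. Of the 29 proprioceptor genes tested, 12 rose and 1 fell in left-out wells, and 12 rose and 1 fell in kept wells, with medians of 0.26 and 0.65 and 44.8% of the list called in each class, beside 17.6% and 16.1% over all genes. *Nefh*, the heavy neurofilament chain, measured 618 and 607 CPM in left-out wells at p0 and 3210, 3317, 2430 and 1729 CPM at p12 (2.15, adjusted p = 0.00137), beside 2.10 in kept wells. *Vamp1*, a synaptic vesicle protein, rose by 2.13 and 2.19, and *Etv1*, the ETS factor of proprioceptors, fell by 0.71 and 0.82. In left-out wells 5 of the 13 genes passed without p0 replicate 1 and 6 without p0 replicate 2.

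**Figure D3:**
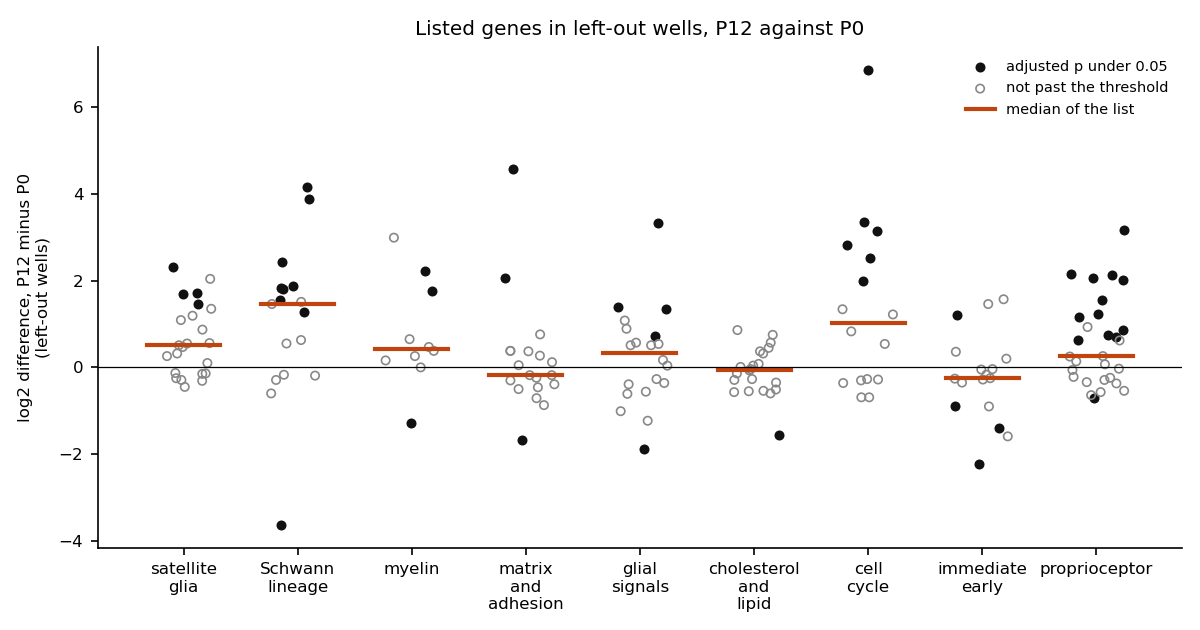
Log2 difference between p12 and p0 in left-out wells for the tested genes of 9 lists, filled where the adjusted p was under 0.05, with the list median in orange. Of these lists the Schwann-lineage list had the highest median (1.46), the cell cycle list followed (1.02), and the matrix and immediate early lists lay below 0 (−0.18 and −0.25). The cell cycle median includes *Ccnb2*, *Mki67* and *Nusap1*, which passed the filter on low counts through p12 plates, so its place is no result about the list.

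A further set of genes was high in p0 left-out wells and close to absent at p12. They were named after their values were seen. *H19*, an imprinted noncoding RNA of fetal tissues (chr7:142575530-142578146), measured 266 and 255 CPM at p0 and 0.629, 0.259, 2.82 and 0 CPM at p12, that is 893 UMIs in 87 of 92 wells against 6 UMIs in 6 of 216 wells (log2 difference −8.63 ± 0.40 SE, adjusted p = 4.6e-05). In p0 kept wells it measured 16.1 and 39.2 CPM, and it fell there as well, to 0 UMIs at p12 (adjusted p = 0.00636). *Dlk1*, an imprinted gene for a Notch-like membrane protein, fell from 58.2 ± 5.92 to 0.992 ± 1.25 CPM (SD; −6.26, adjusted p = 0.000152). *Igf2*, the imprinted fetal growth factor that neighbours *H19*, had 101 UMIs in p0 and 2 in p12 left-out wells. *Igf2* measured 31.3 and 27.4 CPM on the p0 plates. All p0 values of the 3 genes lay above all p12 values, and *H19* and *Dlk1* passed under every alternative computed for them, with adjusted p-values of at most 0.00189 and 0.00599.

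*Crabp2*, which carries retinoic acid, fell by 2.81 (adjusted p = 0.000974), *Cnmd*, which encodes chondromodulin, by 1.91 (adjusted p = 0.00164) and *Tnc*, which encodes the matrix protein tenascin C, by 2.42 (adjusted p = 0.0114). *Mlc1*, a membrane protein of astrocytes and satellite glia, fell by 1.75 (adjusted p = 0.0136). *Cnmd* was lost with wells thinned to 5000 UMIs (adjusted p = 0.0618, within 6.32e-07 to 0.0618 over its alternatives). *Tnc* and *Mlc1* were lost without p0 replicate 1 (adjusted p = 0.0742 and 0.132) or 2 (0.128 and 0.119), with a range of 2.27e-09 to 0.132 over their alternatives. In the other direction, *Itih5*, which binds hyaluronan, measured 9.72 and 6.37 CPM at p0 and 52.8, 55.2, 31.0 and 32.8 CPM at p12 (2.47, adjusted p = 0.00179), and *Col8a1*, a chain of collagen VIII, 1.08 and 3.18 CPM and then 27.5, 28.0, 16.9 and 20.3 CPM (3.53, adjusted p = 0.00151). Kept-well values of these genes, and of *Dlk1* and *Igf2*, are not listed here, so their changes are not read as particular to left-out wells.

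Whether the excess of left-out over kept wells (their log2 difference, which can be below 0) differed between stages was tested with plates as pairs. The wells were chosen on glial RNA at both stages, and the differences rest on that choice. Of 11457 genes, 42 passed (0.367%), 34 with a higher difference at p12 (0.297%) and 8 with a lower one (0.0698%). At an unadjusted p under 0.05, 842 genes were counted, and the median over all genes was −0.01. *Apoe* is among the 34, but its excess was set by the choice of wells and is given without a test, at 1880 and 2264 CPM in left-out wells at p0 and 6822, 5982, 4382 and 4288 CPM at p12, against 210 and 225 CPM and then 485, 294, 124 and 163 CPM in kept wells. DESeq2 called 10 genes, all of them among the 42, and without the pairing of plates 0 passed. Without p0 replicate 1 or 2, 22 and 18 passed, of which 14 and 15 were among the 42.

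Of the satellite glial list, *Fabp7* and *Slc1a3* had a larger excess at p12 and *Cst3* a smaller one. The *Fabp7* excess was 2.89 at p0 and 4.65 at p12 (difference 1.76 ± 0.20 SE, adjusted p = 7.04e-06). In the kept sums *Fabp7* fell by 1.42 on the log2 scale between stages (adjusted p = 0.0143), whereas in left-out wells it did not pass. The kept fall rests on the 8 of 55 p0 kept wells with over 1000 CPM of *Apoe*, which held 87.7% of the kept *Fabp7* UMIs at p0. With kept wells under 200 CPM of *Apoe* only it was −0.69 ± 0.69 SE (adjusted p = 0.535), and it was also lost without p0 replicate 1 (0.103) or 2 (0.135), within 3.04e-06 to 0.535 over its alternatives. The median kept well held 24.96 CPM at p0 and 0 CPM at p12. The stage difference of the excess was likewise no longer called when kept wells were limited to those under 200 CPM of *Apoe* (1.23, adjusted p = 0.288) or with DESeq2 (adjusted p = 0.156), and its adjusted p over all alternatives ran from 6.28e-34 to 1, the latter without pairing. *Cst3*, the protease inhibitor cystatin C, measured 1449 and 1675 CPM in left-out and 783 and 844 CPM in kept wells at p0. At p12 it measured 1071, 978, 1460 and 1548 CPM in left-out and 817, 831, 1459 and 1615 CPM in kept wells, so that its excess went from 0.91 to 0.07 (difference −0.84 ± 0.11 SE, adjusted p = 7.54e-05). It was above kept wells on both p0 plates and on p12 replicates 1 and 2, close to them on p12 replicate 3 and below them on p12 replicate 4. *Slc1a3*, the glial glutamate transporter, was rarer in left-out than in kept wells at p0 (4.32 and 1.91 against 10.2 and 8.70 CPM) and more abundant at p12 (19.1, 15.8, 7.05 and 3.12 against 6.39, 1.47, 2.10 and 1.48 CPM; difference 3.40, adjusted p = 0.0162). It was lost without p0 replicate 1 (0.15) or 2 (0.184), within 0.00134 to 1.

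Of the Schwann-lineage list, *Cnp* had a larger excess at p12 (1.59, adjusted p = 0.0196). *S100b* was lower in left-out than in kept wells at both stages, and that deficit was smaller at p12 (−0.89 at p0 and −0.22 at p12, difference 0.67, adjusted p = 0.00983). *Cnp*, a phosphodiesterase of myelinating cells, measured 59.4 and 58.6 CPM at p0 and 63.7, 65.8, 28.2 and 39.0 CPM at p12 in left-out wells, and in kept wells 45.3 and 30.5 CPM and then 10.2, 14.7, 9.97 and 5.19 CPM. *S100b* was lost without p0 replicate 2 (0.84) and *Cnp* without p0 replicate 1 (0.555), p12 replicate 1 (0.0549) or p12 replicate 4 (0.0703), and both reached 1 without pairing, from lows of 6.47e-08 and 0.00322. *Cd9*, a tetraspanin, was the only called myelin gene (1.24, adjusted p = 0.0385), and it was lost without p0 replicate 1 (0.565) or 2 (0.174) or p12 replicate 1 (0.0671) or 3 (0.0959), within 0.0176 to 1. *Ncam1* was the only called gene of matrix and adhesion (1.15, adjusted p = 0.000397), with kept wells falling from 281 and 258 CPM to 34.5, 44.1, 27.3 and 35.6 CPM.

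Of the genes for glial signals, *Sema3b* (2.70, adjusted p = 0.00398), *Igfbp5* (2.12, adjusted p = 0.0376) and *Id3* (1.57, adjusted p = 0.0196) had a larger excess at p12 and *Hes1* a smaller one (−1.14, adjusted p = 0.0246). *Id3*, an inhibitor of helix-loop-helix factors, measured 106 and 71.9 CPM in left-out wells at p0 and 112, 93.6, 83.2 and 64.0 CPM at p12. In kept wells it measured 50.4 and 70.7 CPM and then 14.1, 38.2, 12.1 and 16.3 CPM (−1.60 between stages, adjusted p = 0.0279). *Sema3b* was lost without p0 replicate 1 (0.643), *Id3* without p0 replicate 2 (0.548) or p12 replicate 3 (0.0611), and *Igfbp5* and *Hes1* without p0 replicate 1 (0.423 and 0.59) or 2 (0.0979 and 0.103). *Hes1* was also lost without p12 replicate 4 (0.0523), and *Igfbp5* without p12 replicate 1 (0.115), 2 (0.126) or 3 (0.105). Over the alternatives these 4 genes ranged from 3.1e-05 to 1.

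In the lists for cholesterol and lipid synthesis (21 genes), cell cycle (13), immediate early genes (17) and proprioceptors (29), edgeR called 0 genes for the stage difference of the excess, with medians of 0.16, 0.61, 0.17 and −0.11. At an unadjusted p under 0.05 there were 4, 3, 2 and 5 genes, and DESeq2 called 0 in each list. Of the fibroblast and other sensory neuron lists (6 genes each) and of 2 macrophage, 1 oligodendrocyte and 1 endothelial and mural gene, edgeR and DESeq2 called 0 as well, with 1 fibroblast gene (*Dcn*) and 1 other sensory gene (*Ret*) at an unadjusted p under 0.05. The excess of left-out wells in neuronal genes thus did not pass as different between stages for any of the 29 genes tested.

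**Figure D4:**
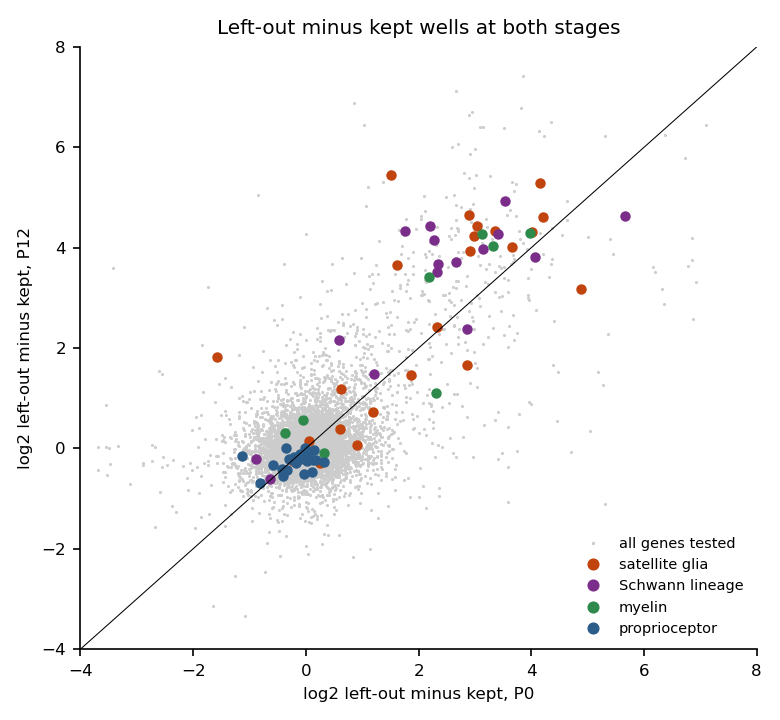
Log2 difference between left-out and kept wells at p0 (horizontal) and p12 (vertical) for all tested genes (grey) and for satellite glial, Schwann-lineage, myelin and proprioceptor genes, with a line of equal difference. The axes run from −4 to 8, genes outside are not shown and *Gjc3* is left out, and most glial genes lie toward the upper right (list medians 2.33 at p0 and 3.18 at p12 for satellite glia), while proprioceptor genes lie near 0.

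Outside the lists, the called genes with the largest differences of the excess, beside *Cartpt*, were *Mgst1* (2.82), *Igfbp4* (2.62), *Zfp873* (2.49), *Fam89a* (2.19), *Marcks* (2.10) and *Sox4* (1.98) in the direction of p12. *Zfp873* was lower in left-out wells at both stages (−2.73 and −0.24), by less at p12. *Zfp873* was lost without p0 replicate 1 (0.0632) or 2 (0.299), *Fam89a* without p0 replicate 1 (0.0632), *Mgst1* without p0 replicate 1 (0.849) or p12 replicate 3 (0.0652) or 4 (0.0813) and *Sox4* without any 1 plate (0.0588 to 0.432), with up to 1 for all without pairing. *Cartpt*, which encodes the neuropeptide CART (chr13:99898483-99910179), rests on few wells. At p0 its 134 kept UMIs came from 6 wells, 58.2% of them from 1 well, and left-out wells held 2 UMIs. *Marcks*, an actin-regulating kinase substrate, measured 266 and 212 CPM in left-out and 108 and 97.9 CPM in kept wells at p0. At p12 it measured 117, 174, 97.4 and 62.4 CPM in left-out and 14.1, 8.82, 10.5 and 7.41 CPM in kept wells (2.10 ± 0.25 SE, adjusted p = 1.31e-05), and it fell in both classes, by 1.03 and by 3.27. The fall in left-out wells (adjusted p = 0.0381) was lost without p0 replicate 1 (0.265) or 2 (0.156) or p12 replicate 1 (0.0831) or 3 (0.0637), within 6.52e-07 to 0.265. *Igfbp4*, a secreted binding protein of insulin-like growth factors, rose in left-out wells from 28.6 and 26.1 CPM to 112, 120, 77.6 and 51.5 CPM (1.78, adjusted p = 0.00529), while kept wells held 16.1 and 31.5 CPM and then 30.7, 8.82, 6.82 and 3.71 CPM. Its difference of excess was lost without p0 replicate 2 (adjusted p = 0.261, within 2.93e-09 to 1), and its rise in left-out wells without p0 replicate 1 (0.0768) or 2 (0.0924), within 8.97e-09 to 0.0924.

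A smaller excess at p12 was found for *Ralb* (−1.51), *Kcnq3* (−1.22), *Fstl1* (−1.13), *Clec2l* (−0.52) and *Gnb1* (−0.50) outside the lists. *Ralb* was lost without p0 replicate 1 (0.724) or 2 (0.09) or p12 replicate 1 (0.078) or 4 (0.0584), *Clec2l* without p0 replicate 2 (0.796) or p12 replicate 3 (0.0588) and *Gnb1* without p0 replicate 1 (0.15) or 2 (0.282), with up to 1 for all without pairing. *Fstl1*, a secreted follistatin-like protein that proprioceptors express, measured 218 and 133 CPM in left-out and 105 and 83.8 CPM in kept wells at p0, and 951, 1346, 887 and 782 against 1246, 1654, 886 and 795 CPM at p12. It rose in both classes, by 2.53 and 3.64, and its difference of excess (adjusted p = 3.29e-05) was lost without p0 replicate 1 (0.0755, within 1.09e-07 to 1). *Kcnq3*, a subunit of the M-current channel, measured 78.3 and 71.9 CPM in left-out wells at p0 and 31.0, 35.0, 14.1 and 9.36 CPM at p12, beside 63.6 and 56.6 and then 67.8, 55.9, 17.8 and 22.2 CPM in kept wells. Its difference (adjusted p = 0.0162) was lost without p0 replicate 1 (0.156) or 2 (0.159) or p12 replicate 1 (0.116), within 0.0127 to 1.

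Since *Fabp7* differed little between stages in left-out wells, other glial genes were set against it by dividing, on each plate, the excess in CPM by the *Fabp7* excess. This is a description, with no test. For each 100 CPM of *Fabp7* excess, *Apoe* had 149 and 156 CPM at p0 and 459, 385, 257 and 243 CPM at p12. *Kcnj10* had 0.56 and 0.78 CPM at p0 and 1.99, 2.07, 1.42 and 1.01 CPM at p12. For both genes every p12 plate lay above both p0 plates. *Dbi*, with 78.6 and 72.6 CPM at p0 and 68.7, 76.2, 59.8 and 53.3 CPM at p12, and *Sostdc1*, with 21.9 and 19.1 CPM and then 21.5, 16.9, 9.08 and 8.49 CPM, were not higher at p12. *Sparc* lay at 17.3 and 18.9 CPM at p0 and at 30.8, 32.5, 12.8 and 12.0 CPM at p12, above p0 on replicates 1 and 2 and below it on replicates 3 and 4.

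The p12 replicates 1 and 2, with the higher share of left-out wells and the deeper wells, and replicates 3 and 4 gave different stage comparisons for several genes. Against both p0 plates, *Sparc* differed by 0.95 (adjusted p = 0.000139) with replicates 1 and 2 alone and by −0.02 (0.937) with replicates 3 and 4 alone, in left-out wells. *Sostdc1* differed by 0.01 (0.958) and −0.75 (0.000121), and *Fbln2*, the matrix protein fibulin 2, by 1.34 (7.63e-06) and 0.10 (0.64). *Fabp7* differed by 0.08 (0.572) and 0.45 (0.00294). *Gpr37l1* and *Kcnj10* kept their direction in both pairs, *Gpr37l1* with 4.37 and 3.75 and *Kcnj10* with 1.86 and 1.42. The differences between the 2 pairs of plates were not tested, and depth moved with them.

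Wells varied widely within each stage. Among left-out wells *Apoe* ranged from 0 to 3787 CPM at p0 and from 0 to 14504 CPM at p12. The left-out wells at or below the highest kept *Apoe* level had median levels of 1478 CPM of *Apoe* and 1197 CPM of *Fabp7* at p0 and of 755 and 67.6 CPM at p12. Spearman's rho between *Apoe* and *Fabp7* across left-out wells was 0.43 at p0 (92 wells) and 0.63 at p12 (216 wells). Between *Apoe* and *Sostdc1* it was 0.54 and 0.66, between *Apoe* and *Sparc* 0.36 and 0.64, and between *Apoe* and *Pvalb* 0.10 and −0.37. Within the 6 plates, rho ran from 0.26 to 0.92 for *Apoe* and *Fabp7* and from −0.48 to 0.23 for *Apoe* and *Pvalb*. These are 4 of 9 pairs computed, given as descriptions, and the wells share plates, depth and the choice on *Apoe*.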

How the data were processed

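Single tdTomato+ cells were sorted into 96-well plates and sequenced with Plate-seq, a 3′ tag method with UMIs. The authors aligned the reads with STAR (version not given in the sources used here) to GRCm38 (mm10), assigned them to genes of the NCBI annotation and deposited UMI counts per gene and well, not normalised, for 50508 genes. Of these, 22478 had no UMI in the sums used here. Strand use in counting is not given, so overlapping and antisense genes cannot be told apart. The authors' annotation after quality control defined the kept wells. Their methods name limits on *Apoe* and *Mbp*, which do not describe the classes in these files. Some genes are not reported here. All plates share the same 96 well barcodes by design, and doublets were not called.

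UMIs were summed per plate and class (12 sums). The main tests were made with edgeR 4.0.16 in R 4.3.3 (filterByExpr, TMM normalisation, quasi-likelihood F-test, Benjamini-Hochberg adjustment over all genes tested, threshold 0.05), with the plate as a pair for left-out against kept wells and for the stage difference of the excess, and without pairs between stages. The CPM of a sum is the gene's UMIs over all UMIs of the sum. Pairs are sums of the same plate. Deviations of left-out and kept sums of a plate from their group means correlated with 0.10 and 0.10 at p0 and 0.59, 0.52, 0.49 and 0.53 at p12, over 11457 genes. The code was tested on simulated data. DESeq2 1.42.0, other normalisations and filters, thinning to 5000 UMIs per well and leaving out each plate were the alternatives. Sums were made in Python 3.11.15 with pandas 2.3.3, exact intervals with scipy 1.17.1, and figures with matplotlib 3.10.9. Because the animals of a plate are not named, p-values measure the spread between plates. Exact (Clopper-Pearson) 95% intervals, and limits for a count of 0 set at 3 counts per group, cover counting error only.

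The wells and the 16 gene lists (268 genes) were chosen with earlier results of these data known. Genes named were list members that passed the filter, and the 10 largest called rises and 10 largest called falls of the stage difference of the excess with a mean of at least 20 CPM in the left-out wells of a stage, predicted genes skipped. Others are said to be named after their values were seen. Coordinates and promoters are from RefSeq GRCm38.p6, and 299 of 302 named genes had coordinates.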

Additional observations from a re-analysis of the deposited data

Results flagged for a closer look

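In 112 groups of 4 p12 plates, 5 had a plate that stood apart from the rest by Dixon's criterion, and chance gives about 1 in 20 groups. These were *Dbi* in left-out wells of replicate 2 (1601 CPM), *Drp2* in left-out wells of replicate 3 (8.47 CPM), and *Fbln2* (46.0 CPM), *Sept4* (226 CPM) and *Zfp873* (48.6 CPM) in kept wells of replicate 1.

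The excess of left-out over kept wells differed between stages, by the test of the difference itself, in the direction of p12 for *Cartpt* (7.77 on the log2 scale, of no use as a fold since p0 left-out wells held 2 UMIs), *Slc1a3* (3.40), *Mgst1* (2.82), *Sema3b* (2.70), *Igfbp4* (2.62), *Zfp873* (2.49), *Fam89a* (2.19), *Igfbp5* (2.12), *Marcks* (2.10), *Sox4* (1.98), *Fabp7* (1.76), *Cnp* (1.59), *Id3* (1.57), *Cd9* (1.24), *Ncam1* (1.15) and *S100b* (0.67). It was smaller at p12 for *Ralb* (−1.51), *Kcnq3* (−1.22), *Hes1* (−1.14), *Fstl1* (−1.13), *Cst3* (−0.84), *Clec2l* (−0.52) and *Gnb1* (−0.50). The wells were chosen on glial RNA at both stages, and these differences rest on that choice. Without the pairing of plates 0 genes passed, and many of these calls were lost without 1 plate. The *Fabp7* difference was also lost with kept wells under 200 CPM of *Apoe* only (adjusted p = 0.288) or with DESeq2 (0.156).

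Wells under the gene minimum, used in no comparison, also held glial RNA, together with neuronal RNA. At p0, 45 such wells had 15 *Apoe* UMIs of 7972 (1882 CPM, exact 95% interval 1053 to 3101) and 10 *Fabp7* UMIs (1254 CPM, 602 to 2306), above the 376 CPM that a count of 0 allows. At p12, 14 such wells had 25 *Apoe* UMIs of 2181 (11463 CPM, 7431 to 16875) and 4 *Fabp7* UMIs (1834 CPM, 500 to 4689), above 1376 CPM. *Pvalb* had 26 UMIs in these wells at p0 (3261 CPM, 2132 to 4775) and 8 at p12 (3668 CPM, 1585 to 7215). These intervals include the median of left-out wells at each stage. The median total per well was 153 UMIs at p0 and 126.5 at p12. Whether these wells held cells was not tested.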

How the results depend on the processing

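The stage difference of the excess called 42 genes, and 10 with DESeq2, 69 with no filter on low counts, 10 with wells thinned to 5000 UMIs and 18 to 54 without 1 plate. Of the 42, 39 were shared with no filter and 7 with thinning. The fit with no replicate block, which ignores that left-out and kept sums come from the same plate, called 0. Between stages, where plates differ, no paired analysis was possible because no plate held both stages. Left-out wells gave 2041 genes between stages, 539 with thinning and 308 to 2471 without 1 plate, and kept wells 1569, 423 and 201 to 1712. Genes over 1 log2 unit in left-out wells numbered 639 at p0 (5006 with no filter, 230 with thinning, 561 to 1038 without 1 plate) and 682 at p12 (4520 and 156). Genes under −1 numbered 197 at p0 (3055, 104, and 178 to 501) and 90 at p12 (2766 with no filter, 33 with thinning, 167 with no replicate block, 111 to 158 without 1 plate). The depth difference of −0.14 lay between −0.16 and −0.12 without 1 plate.

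Other settings were chosen after seeing the data. With p12 replicates 1 and 2 alone, left-out wells gave 5062 and kept wells 2876 genes, and 177 genes lay under −1 at p12. With replicates 3 and 4 alone these were 3434, 4052 and 291, and the stage difference called 65. With kept wells under 200 CPM of *Apoe* only it called 64, of which 33 were among the 42. With 1 p0 plate left, the lone plate is assumed to vary like the others. The causes were not tested. Of 1502 alternatives for 101 results on single genes, 1228 kept direction and side of the threshold, 249 lost it, 22 gained it and 3 changed sign, none of them past the threshold. These were, with p12 replicates 3 and 4 alone, *Sparc* (−0.02 in place of 0.55) and *Cmtm5* (−0.12 in place of 0.26), and, with p12 replicates 1 and 2 alone, *Sostdc1* (0.01 in place of −0.31). *Mal*, at 0.00 on the log2 scale, has no direction and is counted with the 1228. The 2 p0 plates and scarce genes limit precision.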
